A study of Mus musculus with 19 samples.

Results

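A set of 10 genes that encode proteins of the lipid droplet or enzymes that act on it were followed in mouse liver across a reproductive cycle. They were taken by symbol from the 51826 gene entries of the series and are Plin2, Plin3, Plin4, Plin5, Cidea, Cideb, Cidec, G0s2, Pnpla2 and Fitm2. All 10 were listed. Polyadenylated RNA from whole liver, for which the methods of the study name the caudate lobe, was sequenced in 19 female mice labelled Balbc and 12 weeks of age, each a separate animal. There were 7 nulliparous mice, 6 mice at lactation day 10 and 6 mice at involution day 6, counted from weaning. No allele, drug or diet differs between the groups in the labels.

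Lipid droplets store triglyceride and cholesteryl esters under a coat of proteins. Perilipins (Plin genes) cover the droplet surface, and in liver Plin2 is the classical one. CIDE proteins (Cidea, Cideb, Cidec) sit at contacts between droplets or help load lipid onto lipoproteins. Pnpla2 encodes adipose triglyceride lipase, which removes the first fatty acid of a triglyceride, and G0s2 encodes its inhibitor. Fitm2 encodes a protein of the endoplasmic reticulum that is needed for normal droplet budding. Liver takes up and re-exports fatty acids throughout lactation.

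Values are TPM, in which the transcripts of each mouse are scaled to a fixed sum after division by gene length, so levels of different genes can be compared. TPM holds no read number, so depth is unknown here. Stages were compared on the log2(TPM + 1) scale by limma-trend in a single fit of the 19 mice. The fit took in the 16230 genes whose mean reached 0.1 TPM, and p-values were adjusted over them by the Benjamini-Hochberg method. The thresholds of the study were an adjusted p under 0.05 together with a log2 change of 1 or more in size. Genes with an adjusted p under 0.05 and a smaller change are described as having risen or fallen. The animal numbers fall into a range under 200, which holds 3 nulliparous and 3 lactating mice, and a range of 200 and above, which holds the other 4 nulliparous, 3 lactating and all 6 involution mice. Mice are named here by group and animal number, such as NUL_1, LAC_102 and ID6_201. The labels name no batch, and values within the ranges are given because other genes differ between them. The methods name more than 1 supplier of mice but not which mouse came from which. Albumin and the 5 other hepatocyte markers summed to 59843 to 94132 TPM in nulliparous and 101243 to 151445 TPM in lactating mice. They summed to 80860 to 111944 TPM in involution mice, so the tissue was mainly liver in every group. Single mice also had markers of other tissues. The 3 skeletal muscle markers summed to 218.64 TPM in NUL_1 and 39.54 TPM in NUL_4. The 4 mammary epithelium markers summed to 13.8 TPM in LAC_102. The part of these tissues in the values was not tested.

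The genes spanned more than 3 orders of magnitude in level. Plin2 had the highest mean over the 19 mice, 274 TPM, followed by Cideb at 261 TPM and G0s2 at 127 TPM. The next were Plin5 (30.1 TPM), Pnpla2 (29.7 TPM), Plin3 (24.4 TPM) and Fitm2 (14.9 TPM). Plin5 and Pnpla2 did not differ beyond their spread, with stage means of 30.3 ± 5.15 and 29.4 ± 1.90 TPM (SD, n = 7) in nulliparous mice. Plin2 lay above Cideb in nulliparous mice by its mean, and below it in lactating and involution mice. Cidec (1.15 TPM) and Plin4 (0.731 TPM) were low, and Cidea had a mean of 0.0821 TPM, which did not pass the filter. The other 9 genes were therefore tested.

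**Figure D1:**
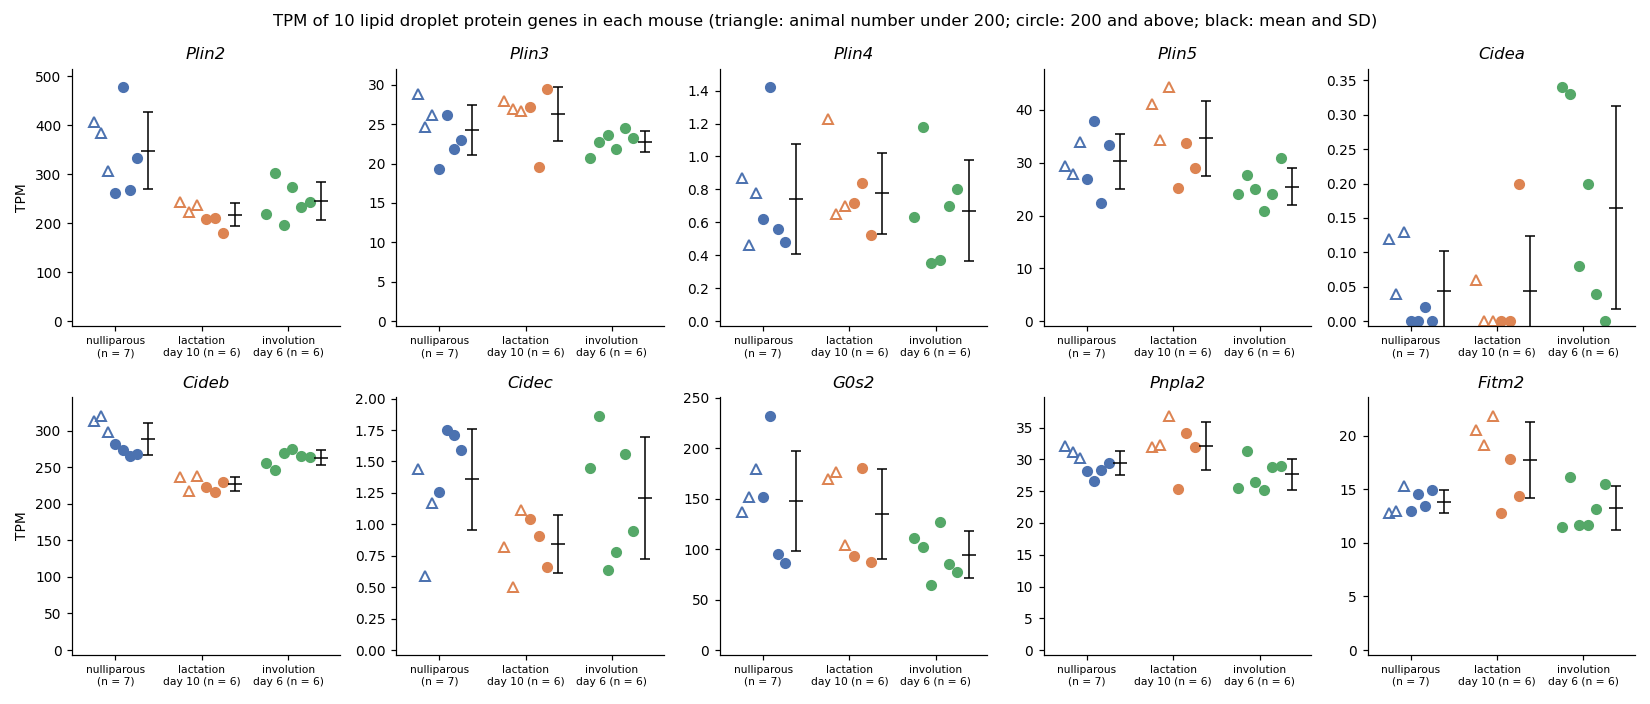
TPM of each of the 10 genes (y axis, linear, its own scale in each panel) in every mouse by stage, with triangles for animal numbers under 200, circles for 200 and above, and the mean with its SD in black. Plin2 and Cideb of the 6 lactating mice lie below those of all 7 nulliparous mice, whereas the other genes overlap between these stages.

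The 4 genes that rose or fell in at least 1 comparison were Plin2, Cideb, Plin5 and Fitm2, and the start of each gene is shown to give the sequence context of the members on which the results turn. Windows were taken from RefSeq on GRCm38.p6 and run from 250 bases before to 50 bases after the annotated start, in the direction of transcription. The table held windows for 9 of the 10 genes. Capitals mark every match on either strand to AGGTCA (a nuclear receptor element), CACGTG (an E-box), GGGCGG (a GC box), CCAAT or TATAAA. The window of Plin2 lies at chr4:86670010-86670309, that of Cideb at chr14:55758375-55758674, that of Plin5 at chr17:56117499-56117798 and that of Fitm2 at chr2:163472580-163472879, all on the minus strand.
Plin2: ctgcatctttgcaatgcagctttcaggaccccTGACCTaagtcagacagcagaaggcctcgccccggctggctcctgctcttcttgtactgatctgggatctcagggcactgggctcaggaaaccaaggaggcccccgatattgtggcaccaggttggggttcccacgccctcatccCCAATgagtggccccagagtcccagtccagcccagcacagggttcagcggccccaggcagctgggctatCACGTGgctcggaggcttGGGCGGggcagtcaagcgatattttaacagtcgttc
Cideb: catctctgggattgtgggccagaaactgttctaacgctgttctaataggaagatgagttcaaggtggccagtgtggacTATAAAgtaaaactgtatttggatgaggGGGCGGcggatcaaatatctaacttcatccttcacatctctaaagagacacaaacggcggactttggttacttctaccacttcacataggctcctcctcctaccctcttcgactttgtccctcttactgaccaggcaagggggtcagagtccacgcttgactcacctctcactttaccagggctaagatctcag
Plin5: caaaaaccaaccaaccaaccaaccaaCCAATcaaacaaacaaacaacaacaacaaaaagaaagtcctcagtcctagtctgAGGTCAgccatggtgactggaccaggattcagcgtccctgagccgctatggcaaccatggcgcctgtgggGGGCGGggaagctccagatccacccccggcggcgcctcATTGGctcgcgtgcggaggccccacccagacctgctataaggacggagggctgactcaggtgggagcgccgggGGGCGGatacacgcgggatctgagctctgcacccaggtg
Fitm2: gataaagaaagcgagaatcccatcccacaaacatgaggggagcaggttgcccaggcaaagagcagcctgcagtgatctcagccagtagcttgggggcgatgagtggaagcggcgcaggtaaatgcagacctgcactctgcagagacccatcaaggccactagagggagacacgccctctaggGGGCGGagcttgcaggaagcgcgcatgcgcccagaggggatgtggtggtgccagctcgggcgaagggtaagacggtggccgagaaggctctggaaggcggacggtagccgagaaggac

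A GC box was present in each of these 4 windows, and in 35.7% of the 32851 windows of the same length in the table. Plin2 carried the E-box CACGTG, whose first base lies 4 bases before the start, a match that 7.15% of all windows hold. It also carried AGGTCA on the other strand, farther upstream. The Plin5 window held the same element 170 bases before the start, and 16.3% of all windows hold it. Cideb held TATAAA, found in 13.6% of all windows, and Plin2 and Plin5 held CCAAT, found in 37.4%. The full repeat AGGTCANAGGTCA, the element bound by PPAR with its partner RXR, was in 13 windows of the table and in none of the 11 windows of these genes, which says only that these letters are not in the windows. None of these matches was tested as a site. Plin5 has a second annotated start, and the first of its windows in the table is shown.

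Plin2 mRNA was lower in lactation. Plin2 (ENSMUSG00000028494) spans 86648386 to 86670060 on the minus strand of chromosome 4 of GRCm38, and its product coats droplets and is stabilized by them. In nulliparous mice its lowest, median and highest levels were 262, 333 and 478 TPM, in lactating mice 181, 216.6 and 244 TPM, and in involution mice 195, 238 and 303 TPM. In TPM as deposited, every lactating mouse was below every nulliparous mouse, while involution mice overlapped both. The mean fell from 348 ± 78.8 TPM (SD, n = 7) to 217.5 ± 23.0 TPM (SD, n = 6). It fell by 37.6%, with a log2 change of -0.65 (95% interval -0.93 to -0.38, limma adjusted p = 0.00383). The coefficient of variation was 22.6% in nulliparous and 10.6% in lactating mice, a difference that was not tested, and 477.81 TPM in nulliparous mouse NUL_221 was the highest value of the series for this gene.

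The fall of Plin2 was present in both ranges of animal number. Among mice under 200 the nulliparous mean was 366 ± 52.8 TPM and the lactating mean 235 ± 11.1 TPM (SD, n = 3 each), with a log2 change of -0.63 and a limma adjusted p of 0.0380. At 200 and above the means were 335 ± 100.2 TPM (SD, n = 4) and 200.03 ± 16.7 TPM (SD, n = 3), with a log2 change of -0.70 and a limma adjusted p of 0.0376, and the groups did not overlap in either range. Each mouse left out in turn gave adjusted p-values from 0.00222 to 0.0113. Among the alternatives, only median-ratio scaling together with mice numbered 200 and above lost the call (log2 change -0.61, limma adjusted p = 0.0623). Median-ratio scaling alone kept it (log2 change -0.60, limma adjusted p = 0.00963), but the groups then overlapped. Scaled Plin2 was 265.0 TPM in LAC_133, above 260.5 TPM in NUL_220 and 264.2 TPM in NUL_226. In bulk liver, fewer cells of a type and less RNA per cell cannot be told apart. Plin2 is also made by macrophages and stellate cells, and markers of both were lower in lactation too. The 5 macrophage markers summed to 204 to 367 TPM in nulliparous and 130.0 to 255 TPM in lactating mice, and all 5 fell (adjusted p from 0.00166 to 0.0352), as did 3 of 5 stellate markers, whose sums were 141 to 179 and 104 to 119 TPM. After median-ratio scaling 3 of the 5 macrophage and 3 of the 5 stellate markers fell in lactation. At involution the macrophage sum was 439 to 605 TPM and the stellate sum 145 to 185 TPM. The part of these cells in the level of Plin2 was not tested.

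Cideb fell in lactation and rose again at involution. Cideb (ENSMUSG00000022219, chromosome 14, 55754050 to 55758458, minus strand) encodes the CIDE protein of hepatocytes, which takes part in loading triglyceride onto very low density lipoproteins. Nulliparous mice had 265 to 320 TPM with a median of 282, lactating mice 217 to 239 TPM with a median of 226.9, and involution mice 247 to 275 TPM with a median of 265. The lactating mice stood apart from both other groups, each of which lay wholly above them. From nulliparous mice to lactation the mean went from 289 ± 22.3 TPM (SD, n = 7) to 227.4 ± 9.48 TPM (SD, n = 6), a log2 change of -0.34 (95% interval -0.45 to -0.23, limma adjusted p = 4.91e-04). It was the most precise change among the 9 tested genes, with a standard error of 0.053, and it held in both ranges (limma adjusted p of 0.0279 under 200 and 0.00997 at 200 and above). Within nulliparous mice the 3 animals under 200 had 299 to 320 TPM and the 4 at 200 and above 265 to 282 TPM.

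At involution the mean of Cideb was 263 ± 10.3 TPM (SD, n = 6), a rise of 15.7% over lactation with a log2 change of 0.21 (95% interval 0.09 to 0.33, limma adjusted p = 0.0101). The median gene also rose between these stages, by 0.099 on the log2 scale. Median-ratio scaling, which divides each mouse by the median ratio of its genes to their geometric mean, brought that median to -0.0056. After scaling the change of Cideb was 0.05 with a limma adjusted p of 0.757, and the groups overlapped, so the rise did not pass relative to the bulk of genes. The fall in lactation remained after scaling (log2 change -0.29, limma adjusted p = 0.0299), although the groups then overlapped, and it was lost where scaling was combined with mice numbered 200 and above (-0.19, limma adjusted p = 0.192). Exons of Nop9 on the opposite strand overlap those of Cideb, and whether reads were counted by strand is not given in the sources used here. Nop9 had stage means of 7.55 to 8.84 TPM, far below Cideb.

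None of the other tested genes passed the threshold between nulliparous and lactating mice. On the log2(TPM + 1) scale, which understates changes at low TPM, Cidec (-0.35) changed about as much as Cideb. The mean of Cidec fell by 38.2%, against 21.3% for Cideb. Of the 9 tested genes, 0 passed both thresholds in limma-trend, where 0.746% of all genes did. Fitm2 and Cidec had an unadjusted p under 0.05 in addition to Plin2 and Cideb, 4 in all, and 23.1% of all genes did. With no threshold on the fold, 2 of 9 had fallen and 0 had risen, against 6.49% and 2.72% of all genes. The median log2 change of the 9 was 0.04, and that of all genes -0.032. Groups that did not overlap in TPM as deposited, with lactation lower, were found for 2 of the 9 and for 2.29% of all genes. The groups of both genes, Plin2 and Cideb, overlapped after scaling. After median-ratio scaling 1 of 9 rose and 2 of 9 fell, against 4.59% and 4.53% of all genes.

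**Figure D2:**
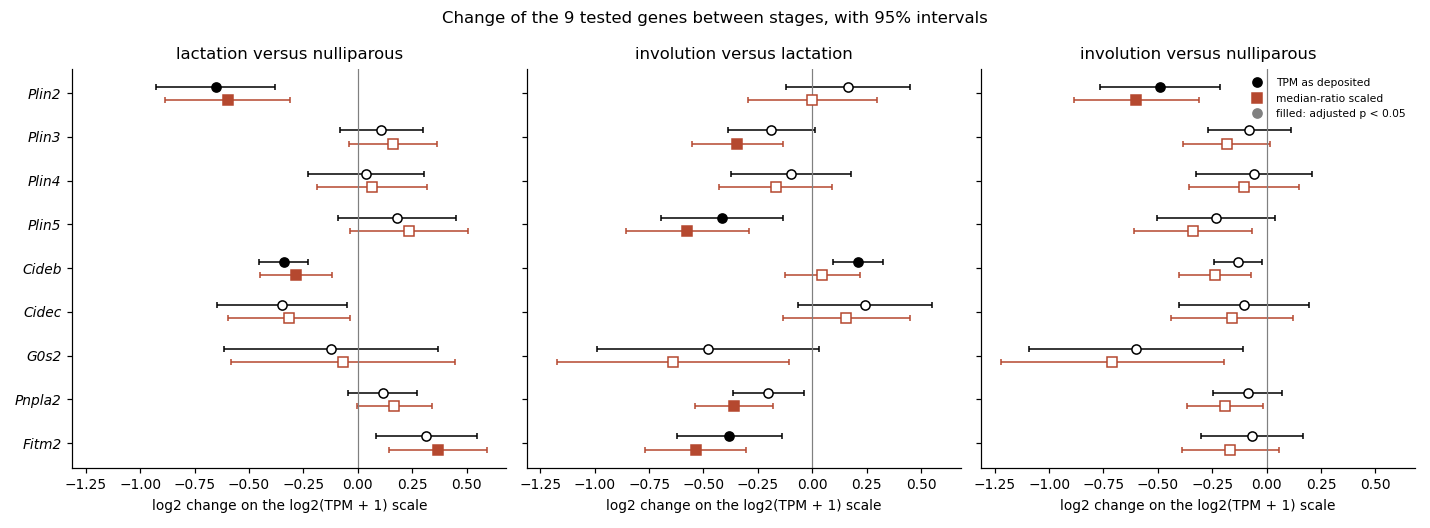
Log2 change (x axis, on the log2(TPM + 1) scale) of the 9 tested genes with 95% intervals in the 3 comparisons, for TPM as deposited (black circles) and after median-ratio scaling (red squares), filled where the adjusted p was under 0.05. Plin2 lies at -0.65 and Cideb at -0.34 in lactation, and the rise of Cideb at involution shrinks from 0.21 to 0.05 with scaling.

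Among the remaining perilipins, Plin3 and Plin5 did not differ detectably between nulliparous and lactating mice. Plin3 (chromosome 17, 56277476 to 56292873), a perilipin that moves between cytosol and nascent droplets, had 24.3 ± 3.18 TPM (SD, n = 7) and 26.3 ± 3.42 TPM (SD, n = 6), and the 95% interval of its log2 change was -0.08 to 0.30. Plin5 (chromosome 17, 56111601 to 56117596), which links droplets to mitochondria in oxidative tissue, had 30.3 ± 5.15 and 34.6 ± 7.13 TPM, with an interval of -0.09 to 0.45. Plin4 (chromosome 17, 56100591 to 56109803) stayed under 1.5 TPM in every mouse, with 0.46 to 1.42 TPM in nulliparous, 0.52 to 1.23 TPM in lactating and 0.35 to 1.18 TPM in involution mice. Its exons overlap those of Hdgfl2 on the opposite strand. The level of Hdgfl2 is not given here and the strand setting is unknown, so the part of Hdgfl2 reads in the Plin4 values was not tested. The make-up of the perilipins also differed between stages. Plin2 held 83.4% to 87.9% of the summed TPM of Plin2 to Plin5 in nulliparous mice, 75.4% to 79.7% in lactation and 79.9% to 86.5% at involution. The lactating mice lay below every mouse of the other stages, by a narrow margin against involution. This share is given as a description, since between nulliparous and lactating mice it follows largely from Plin2. From lactation to involution the means changed by 12.6% for Plin2, -13.2% for Plin3 and -26.5% for Plin5. The higher share at involution than in lactation therefore did not follow from Plin2 alone.

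At involution day 6 Plin2 was lower than in nulliparous mice. The mean of 245 ± 38.8 TPM (SD, n = 6) was lower by 29.7% than that of nulliparous mice, all 6 mice were below the nulliparous mean, and the log2 change was -0.49 (95% interval -0.77 to -0.22, limma adjusted p = 0.0413). Plin2 was 1 of 9 tested genes to fall in this comparison with no threshold on the fold, where 0.912% of all genes fell, and 0 of 9 rose, where 3.44% did. After scaling 1 of 9 fell (Plin2 again, limma adjusted p = 0.0309) and 0 rose, against 1.32% and 1.02% of all genes. Both thresholds together were passed by 0 of 9 in limma-trend and by 0.253% of all genes, and 3 of 9 (Plin2, Cideb and G0s2) had an unadjusted p under 0.05, as did 25.1% of all genes. The call on Plin2 was lost without any of NUL_1, NUL_4, NUL_13 and NUL_221 or of ID6_201, ID6_216, ID6_230 and ID6_232, with limma adjusted p from 0.0611 to 0.0948. Against the 4 nulliparous mice numbered 200 and above the change was -0.42 with a limma adjusted p of 0.285. All 5 macrophage markers rose and all 5 erythroid markers fell from nulliparous to involution mice, and their part in the fall of Plin2 was not tested. Between lactation and involution Plin2 changed by 0.16 (95% interval -0.12 to 0.45, limma adjusted p = 0.419) as deposited and by -0.00024 after scaling.

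Plin5 and Fitm2 were lower at involution than in lactation. Plin5 fell from 25.3 to 44.3 TPM in lactating mice (median 34.0) to 20.8 to 30.9 TPM at involution (median 24.6), and the groups overlapped. Its log2 change was -0.42 (95% interval -0.70 to -0.13, limma adjusted p = 0.0319), and all 6 involution mice lay below the lactating mean of 34.6 TPM. Fitm2 (ENSMUSG00000048486, chromosome 2, 163466379 to 163472629) had 12.8 to 21.8 TPM in lactation (median 18.5) and 11.5 to 16.1 TPM at involution (median 12.4). Its mean went from 17.7 ± 3.53 to 13.3 ± 2.07 TPM (SD, n = 6 each), with a log2 change of -0.38 (95% interval -0.62 to -0.14, limma adjusted p = 0.0230). Exons of the antisense gene 2310001K24Rik overlap those of Fitm2, and its stage means were 0.187 to 0.665 TPM. Markers of other cell types differed strongly between these stages. All 5 erythroid markers fell, with log2 changes of -3.06 to -1.04 and sums of 1331 to 3336 TPM in lactating and 197 to 847 TPM in involution mice. All 5 macrophage markers rose, by 1.23 to 1.84, and 3 of 4 endothelial markers rose, with endothelial sums of 59.0 to 110 and 144 to 160.0 TPM. The part of these cells in the changes of Plin5, Fitm2 and Cideb between lactation and involution was not tested.

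Both falls leaned on the lower-numbered lactating mice. The lactating mice under 200 had 34.2 to 44.3 TPM of Plin5 and 19.1 to 21.8 TPM of Fitm2, and those at 200 and above 25.3 to 33.8 and 12.8 to 17.8 TPM, whereas involution mice are all at 200 and above. With mice numbered 200 and above alone, the log2 changes were -0.20 for Plin5 (limma adjusted p = 0.430) and -0.16 for Fitm2 (limma adjusted p = 0.428). With the range as a term in the fit of all 19 mice they were -0.31 (limma adjusted p = 0.148) and -0.29 (limma adjusted p = 0.111). Leaving out LAC_36, LAC_102, LAC_133 or ID6_218 ended the call on both genes, and leaving out ID6_201, ID6_216 or ID6_230 that on Plin5, with limma adjusted p from 0.0504 to 0.0837. After median-ratio scaling both falls were larger (-0.57 and -0.54, limma adjusted p of 0.00578 and 0.00239).

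In this comparison 1 of 9 tested genes rose (Cideb) and 2 of 9 fell, against 18.1% and 4.73% of all genes. Both thresholds together were passed by 0 of 9 in limma-trend and by 1.93% of all genes, and 4 of 9 had an unadjusted p under 0.05, as did 35.2% of all genes. Cideb was also the gene whose groups did not overlap with involution higher, as in 9.3% of all genes. The median of the 9 was -0.19 and that of all genes 0.099. After scaling 4 of 9 fell and 0 rose, where 8.34% and 8.02% of all genes did. The additional falls were those of Plin3 (log2 change -0.34, limma adjusted p = 0.0219) and Pnpla2 (-0.36, limma adjusted p = 0.00685). As deposited these were -0.19 and -0.20, with limma adjusted p of 0.165 and 0.0713. For Plin3, leaving out lactating mouse LAC_213 gave a limma adjusted p of 0.0254, and for Pnpla2, leaving out lactating mouse LAC_200 or involution mouse ID6_209 gave 0.00959 and 0.0457. Over all mice left out in turn, the limma adjusted p ranged from 0.0254 to 0.275 for Plin3 and from 0.00959 to 0.170 for Pnpla2.

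Fitm2 was higher in lactation in the lower-numbered mice. It had 12.8 to 15.3 TPM in nulliparous mice, and 5 of the 6 lactating mice were above the nulliparous mean of 13.8 TPM. The log2 change of 0.32 (95% interval 0.08 to 0.55) missed the threshold with a limma adjusted p of 0.0843, and passed it after scaling (0.37, limma adjusted p = 0.0372) and without lactating mouse LAC_200 (0.40, limma adjusted p = 0.0219). With each mouse left out in turn, the limma adjusted p ranged from 0.0219 to 0.181. Among mice under 200 the change was 0.55 (limma adjusted p = 0.0371), from 13.7 ± 1.41 to 20.5 ± 1.35 TPM (SD, n = 3 each). Among mice at 200 and above it was 0.08 (limma adjusted p = 0.789). The test of the difference between these ranges gave an interaction of -0.47 with an unadjusted p of 0.0112 in limma and an adjusted p of 0.247, so the ranges were not shown to differ. Among the 9 genes, 0 had an adjusted p under 0.05 for this interaction and 1 an unadjusted p under 0.05, where 0.111% and 13.2% of all genes did.

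The lipase and its inhibitor differed in how much they varied. Pnpla2 (ENSMUSG00000025509, chromosome 7, 141455198 to 141460743) had 26.6 to 32.1 TPM in nulliparous, 25.3 to 36.8 TPM in lactating and 25.1 to 31.4 TPM in involution mice. Its coefficient of variation within a stage was 6.44% to 11.9%. G0s2 (ENSMUSG00000009633, chromosome 1, 193272161 to 193273217) had 85.8 to 231.5 TPM (median 151), 87.0 to 181 TPM (median 136) and 64.4 to 127 TPM (median 93.6), and its coefficient of variation was 24.4% to 33.7%. In lactation G0s2 lay at 87.0 to 104 TPM or at 169 to 181 TPM, with 3 mice at each level and both ranges of animal number in each. At involution all 6 mice were below the nulliparous mean of 147 TPM, and the log2 change of -0.60 (95% interval -1.09 to -0.11) had a limma adjusted p of 0.128.

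The ratio of G0s2 to Pnpla2 within a mouse needs no scaling between mice. Its median was 4.86 in nulliparous, 4.47 in lactating and 3.10 in involution mice, with ranges of 2.91 to 8.70, 2.72 to 5.45 and 2.43 to 5.05 that overlapped throughout. The mean log2 ratio in the 3 stages ran from 2.25 ± 0.53 (SD, n = 7) through 2.01 ± 0.47 in lactation to 1.74 ± 0.41 at involution (SD, n = 6 each). Two-sided exact permutation tests gave p = 0.402 for lactation against nulliparous mice, p = 0.288 for involution against lactation and p = 0.0781 for involution against nulliparous mice. The last difference was -0.52 on the log2 scale with p = 0.234 in the exact permutation test after Benjamini-Hochberg adjustment over the 3 comparisons. Its unadjusted exact permutation p was 0.0325 without nulliparous mouse NUL_227 and 0.0379 without involution mouse ID6_218.

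**Figure D3:**
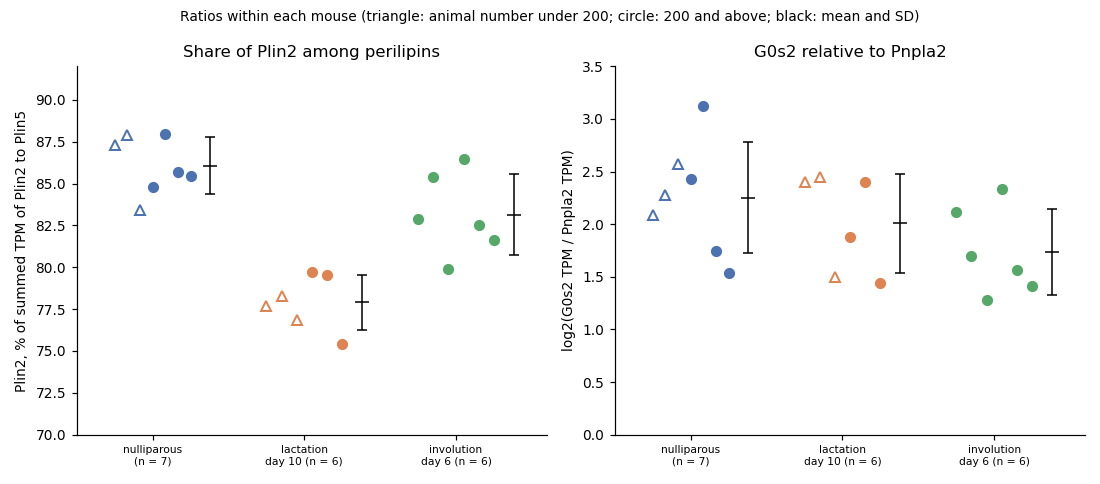
Left, Plin2 as a percentage of the summed TPM of Plin2 to Plin5 (y axis from 70 to 92), and right, log2 of G0s2 TPM over Pnpla2 TPM, in every mouse by stage, with triangles for animal numbers under 200, circles for 200 and above, and the mean with its SD in black. The perilipin share of the 6 lactating mice lies between 75.4% and 79.7%, below every other mouse, whereas the G0s2 to Pnpla2 ratios overlap between stages.

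The fat-type CIDE genes were barely present. Cidec (chromosome 6, 113424634 to 113435760), which drives droplet fusion in white adipocytes and fatty liver, had 0.59 to 1.75 TPM in nulliparous, 0.50 to 1.11 TPM in lactating and 0.64 to 1.86 TPM in involution mice. All 6 lactating mice were below the nulliparous mean of 1.36 TPM, and the log2 change was -0.35 (95% interval -0.65 to -0.05, limma adjusted p = 0.143). Without nulliparous mouse NUL_4, the lowest of its group, the limma adjusted p was 0.0377 with a log2 change of -0.44. With each mouse left out in turn, the limma adjusted p ranged from 0.0377 to 0.274. Cidea (ENSMUSG00000024526), a marker of brown fat and of steatotic liver, was listed at 0 in 3 nulliparous, 4 lactating and 1 involution mice. Its highest values were 0.34, 0.33 and 0.20 TPM, in the involution mice ID6_201, ID6_209 and ID6_218, and 0.20 TPM in lactating mouse LAC_240. Adipoq, an adipocyte marker, had 2.95, 1.25 and 0.58 TPM in these 3 involution mice but 0.06 TPM in LAC_240. In nulliparous mice the highest Cidea levels were 0.13 TPM in NUL_13 and 0.12 TPM in NUL_1, with Adipoq at 0.39 and 1.46 TPM. Among these mice LAC_240 had the lowest Adipoq, and all of these Cidea values are near the floor. Other mice had more Adipoq than NUL_13 but less Cidea. They were ID6_230 (Adipoq 0.52, Cidea 0.04 TPM), LAC_36 (0.42 and 0.06 TPM) and NUL_227 (0.41 and 0 TPM). Over the 6 adipocyte markers, sums were 10.3 to 38.03 TPM in nulliparous, 13.2 to 22.6 TPM in lactating and 12.4 to 44.3 TPM in involution mice. None of the 5 adipocyte markers tested rose or fell in any comparison, and leptin was at or near 0. The part of fat tissue in the values of Cidea, Cidec and Plin4 was not tested.

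Within stages, single mice were high for several of the genes. Nulliparous mouse NUL_221 was the highest of its group for Plin2, Plin4, Plin5, Cidec and G0s2 and the lowest for Pnpla2, and it was the highest for 15.4% of all genes. Lactating mouse LAC_133 was highest for 5 genes, Plin5, Cideb, Cidec, Pnpla2 and Fitm2, and for 8.78% of all genes. Lactating mouse LAC_200 was lowest for Plin5, Pnpla2 and Fitm2, and for 14.4% of all genes. At involution the mouse ID6_209 was highest for Plin2, Plin4, Cidec, Pnpla2 and Fitm2 and for 24.5% of all genes, while the mouse ID6_216 was lowest for Plin2, Plin4, Cidec and G0s2 and for 22.3%. Between the ranges of animal number, with stage in the fit, 0 of the 9 genes differed at an adjusted p under 0.05 in limma, where 16.4% of all genes were higher and 9.14% lower at 200 and above and 1.95% passed both thresholds. Cideb and Pnpla2 had an unadjusted p under 0.05, each lower at 200 and above, by 0.12 and 0.15 on the log2 scale.

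**Figure D4:**
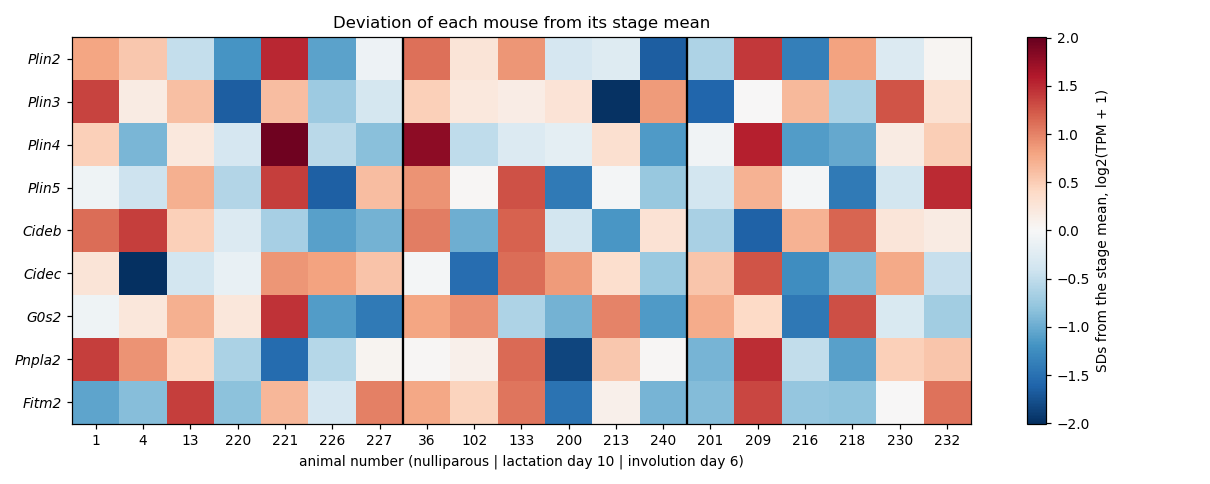
Deviation of each mouse (columns, by animal number within stage) from its stage mean for the 9 tested genes (rows), in SDs of log2(TPM + 1), with red above and blue below the mean. Nulliparous mouse NUL_221 and involution mouse ID6_209 are red for Plin2, Plin4 and Cidec, and lactating mouse LAC_200 is blue for Plin5, Pnpla2 and Fitm2.

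Genes with a similar profile over the 19 mice were sought for the 4 members that rose or fell. Likeness was the mean absolute difference of standardized log2(TPM + 1) among the 11605 genes whose mean reached 1 TPM, where 0 is identical. Nearest to Plin2 were Tnfaip8l1 (0.395), Lonp2 (0.411), which encodes a protease of peroxisomes, and Ccdc181 (0.442), against a median of 1.11 over all genes. Lonp2 had 211 ± 38.2 TPM (SD, n = 7), 141 ± 12.4 TPM (SD, n = 6) and 164 ± 11.5 TPM (SD, n = 6) in the 3 stages. Nearest to Cideb were Hsd3b7 (0.267), an enzyme of bile acid synthesis, 2310039H08Rik (0.288) and Gm20319 (0.298). Plin5 and Fitm2 were among the 3 nearest of each other, at 0.434. The others were Slc52a2 and Gla for Plin5, and Ppp2r2d and Cdca7 for Fitm2. These points share libraries and scaling, and the values are descriptions.

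Related lists of lipid genes moved in parts, and the percentages of all genes given above serve as their background. Of 12 further genes of droplet formation and coat, 3 rose and 0 fell in lactation against nulliparous mice. They were Acsl3, an acyl-CoA synthetase of nascent droplets (7.95 ± 2.96 to 15.7 ± 4.05 TPM, log2 change 0.93, limma adjusted p = 0.00342), Hsd17b13, a droplet protein of hepatocytes (0.38), and Pcyt1a, the enzyme that sets phosphatidylcholine supply for droplet growth (0.28). Of these, Acsl3 passed among mice at 200 and above (0.81, limma adjusted p = 0.00680) and the others did not. At involution against lactation 2 rose (Ldah 0.51 and Bscl2, which encodes seipin, 0.38) and 2 fell (Acsl3 -0.74 and Fitm1 -1.86), whereas after scaling 1 rose and 4 fell. Bscl2 then did not pass (0.22, limma adjusted p = 0.112), and Hsd17b13 (-0.38, limma adjusted p = 0.00437) and Pcyt1a (-0.39, limma adjusted p = 3.73e-04) were the additional falls. Fitm1 is a muscle gene. None of the 3 skeletal muscle markers passed in this comparison, and they summed to 0 to 15.96 TPM in lactating and 0 to 7.16 TPM in involution mice. Among mice at 200 and above, the fall of Fitm1 was smaller and still passed (-0.75, limma adjusted p = 0.00822). The muscle marker sum was 0 TPM in all 3 lactating mice of that range. The part of muscle and of the range of animal number in this fall was not tested.

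Of 8 further genes of lipolysis, 2 rose and 2 fell in lactation. Pnpla3, a droplet lipase relative of Pnpla2, rose from 1.04 ± 0.914 to 8.39 ± 5.70 TPM (log2 change 2.04, limma adjusted p = 0.00287), and Abhd5, the co-activator of Pnpla2, from 18.7 ± 4.31 to 29.9 ± 8.38 TPM (0.63, limma adjusted p = 0.0252). Both also passed among mice at 200 and above, with log2 changes of 2.56 and 0.76 and limma adjusted p of 9.34e-04 and 0.00650. Mgll, which encodes monoacylglycerol lipase, fell by 0.47 (limma adjusted p = 8.74e-04), and Aadac by 0.23, the latter not after scaling (limma adjusted p = 0.219). At involution against lactation 3 of the 8 rose (Aadac 0.34, Lipa 0.24 and Mgll 0.23), none of which passed after scaling, and Lipe, which encodes hormone-sensitive lipase, fell by 0.61 on the log2 scale. After scaling 2 of the 8 fell, Lipe (-0.74, limma adjusted p = 0.00131) and Pnpla3 (-1.19, limma adjusted p = 0.0485), where Pnpla3 as deposited had -1.07 (limma adjusted p = 0.0660). Among mice at 200 and above Lipe did not pass (-0.34, limma adjusted p = 0.135), whereas Pnpla3 (-1.97, limma adjusted p = 0.00109) and Abhd5 (-0.66, limma adjusted p = 0.00436) fell and Aadac rose (0.27, limma adjusted p = 0.0175).

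Of 10 genes of triglyceride synthesis and export, 3 rose and 0 fell in lactation. Gpam, the acyltransferase that opens glycerolipid synthesis, rose from 31.7 ± 5.64 to 75.9 ± 28.0 TPM (log2 change 1.17, limma adjusted p = 0.00105), Lpin2 by 0.63 and Mttp, the loader of apolipoprotein B, by 0.28. Among mice at 200 and above Gpam passed (1.22, limma adjusted p = 0.0150) and the others did not. At involution against lactation 4 fell and 2 rose, and after scaling 5 fell and 1 rose. The largest of these changes were Mogat1 (-1.34), Gpam (-1.27), Lpin2 (-0.96) and Agpat2 (0.38), and among mice at 200 and above Mogat1 did not pass (-0.40, limma adjusted p = 0.372). Dgat2 was the gene of this list to differ between involution and nulliparous mice (0.41, limma adjusted p = 0.0297), and not after scaling (limma adjusted p = 0.0816).

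PPAR alpha is a nuclear receptor for fatty acids, and Plin2, Plin5, Cidec and G0s2 are among the genes it is known to induce in liver. Of 11 further targets, 0 rose and 1 fell in lactation, Cpt1a (-0.59, limma adjusted p = 0.00625). Among mice at 200 and above 2 of the 11 rose, Cyp4a10 (2.35, limma adjusted p = 0.00278) and Ehhadh (0.40, limma adjusted p = 0.0490), and 4 fell. At involution against lactation 0 rose and 5 fell, led by Cyp4a14 (-5.19), Cyp4a10 (-5.04), Acot1 (-3.42) and Ehhadh (-1.22). Between involution and nulliparous mice 2 of the 11 fell, Cyp4a14 (-4.52) and Cyp4a10 (-3.07), the latter not after scaling (limma adjusted p = 0.0526) or among mice at 200 and above (limma adjusted p = 0.0743). Cyp4a10 had 906 ± 723 TPM (SD, n = 6) in lactating and 20.9 ± 15.1 TPM (SD, n = 6) in involution mice. The lactating values were 1527 to 1610 TPM in the 3 mice under 200 and 217.2 to 275 TPM in the 3 at 200 and above, so the spread lay between the ranges of animal number. The Cyp4a genes and Acot1 have close paralogs, among which the division of reads is uncertain. Among mice at 200 and above Cyp4a14, Cyp4a10, Acot1 and Ehhadh also fell from lactation to involution. Their falls were 3.19, 3.71, 1.64 and 0.48 on the log2 scale, and Creb3l3 rose (0.37, limma adjusted p = 0.0362). Of 5 PPARs and partners, Pparg fell in lactation (-0.40, limma adjusted p = 0.0420) and Ppard rose at involution (1.33, limma adjusted p = 0.0349), and neither passed after scaling or among mice at 200 and above.

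**Figure D5:**
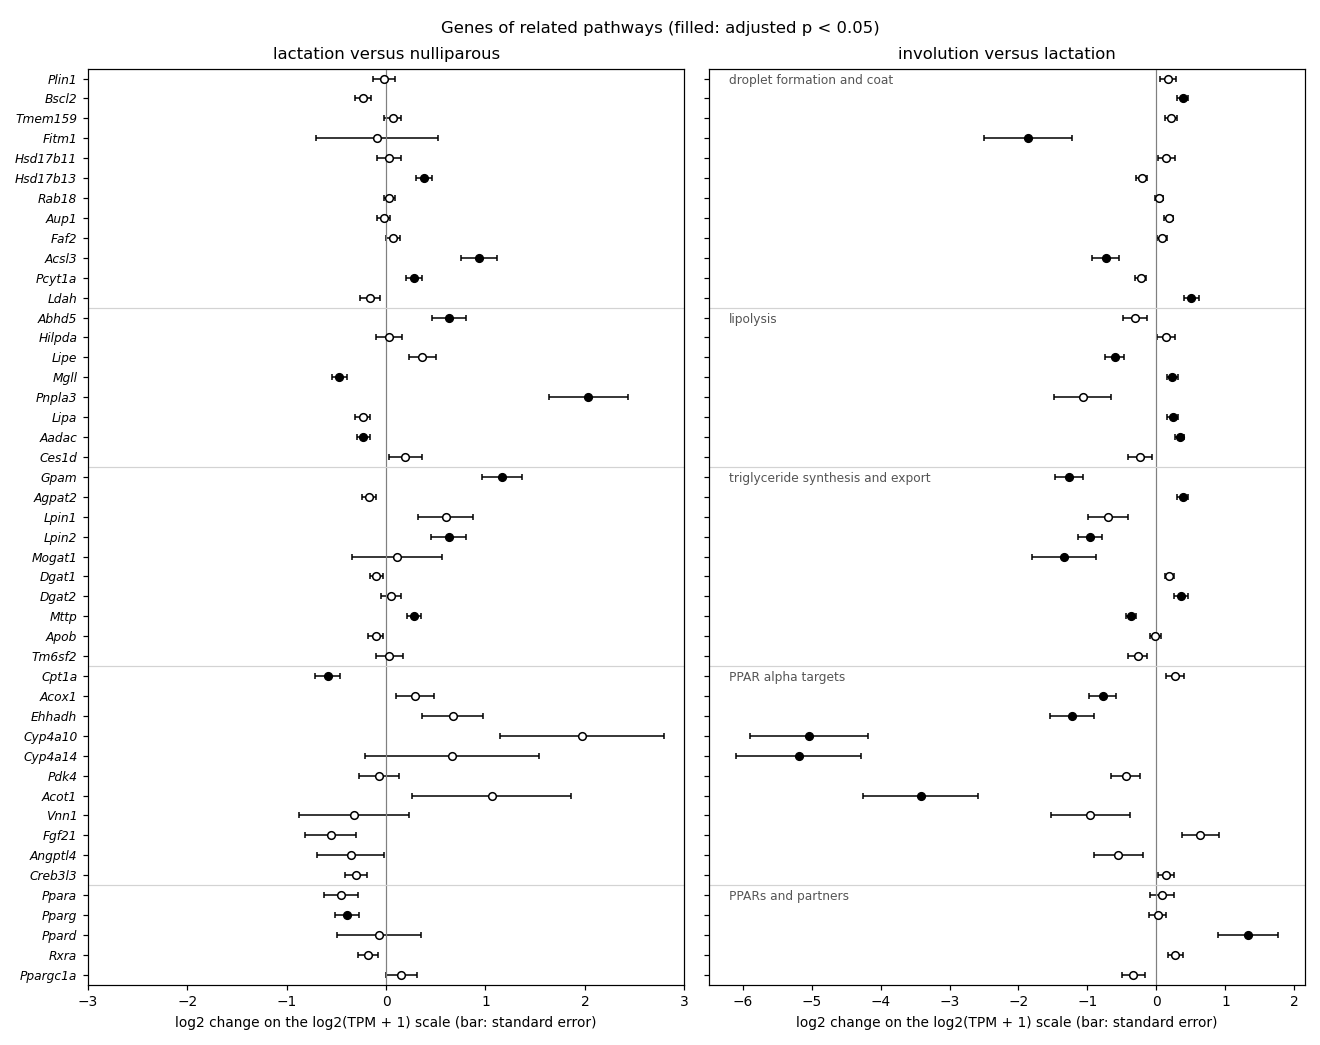
Log2 change (x axis, on the log2(TPM + 1) scale, bars for the standard error) of the genes of related pathways for lactation against nulliparous mice (left) and involution against lactation (right), each panel with its own range, filled where the adjusted p was under 0.05. Pnpla3 (2.04) and Gpam (1.17) stand to the right in lactation, and Cyp4a14 (-5.19) and Cyp4a10 (-5.04) far to the left at involution.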

How the data were processed

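Liver RNA of 19 mice was enriched for poly(A) and sequenced as read pairs. The authors used the GRCm38 genome and an Ensembl annotation, estimated expression with RSEM 1.3.1 and deposited TPM with 2 decimals for 51826 gene entries. The aligner and the strand setting are not given in the sources used here. RSEM divides reads that match several genes, so values of close paralogs are uncertain, and TPM carries no depth, so no counting interval is given. The study's own test was a model of read counts, which TPM do not allow. Here the deposited TPM were tested on log2(TPM + 1) with limma-trend (limma 3.58.1, R 4.3.3), with 1 mean per stage, a mean of at least 0.1 TPM, and adjustment over all genes tested. Fold changes on this scale are understated for genes at low TPM. The script was checked on simulated data.

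The members and lists were chosen with earlier results of these data known, and no p was adjusted over a list alone. The 3 comparisons share mice. The G0s2 to Pnpla2 ratio was compared by two-sided exact permutation tests. All 10 members were named. 1 gene of the related lists is not reported here. Of each related list the counts were given and, in the main fit, at most 4 genes with the largest change among those with an adjusted p under 0.05. Further genes were named where an alternative moved them. Likeness was planned for members past both thresholds. None passed, and the members at an adjusted p under 0.05 were used instead after the values had been seen. The count at an adjusted p under 0.05 under every alternative, median-ratio scaling joined with mice numbered 200 and above, and the ratio in mice under 200 were also added after seeing the data. The other alternatives were a pseudocount of 0.1, a filter at 1 TPM or none, the 2 groups alone, median-ratio scaling, only one range of animal number, the range as a covariate, no threshold on the fold, and each mouse left out. Of the 171 pairs of mice, 0 had identical values. Gene positions are from GENCODE M21 on GRCm38. Sequences were read and figures drawn with Python and matplotlib.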

Additional observations from a re-analysis of the deposited data

Results flagged for a closer look

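In 33 groups (11 quantities, namely the 10 genes and the G0s2 to Pnpla2 ratio, in 3 stages), 3 had a mouse whose gap to the nearest of the others was a larger share of the range than Dixon's limit allows. Chance passes that limit in about 1 in 20 groups. For Plin3 lactating mouse LAC_213 was lowest at 19.61 TPM, with the next at 26.64 TPM, a gap of 0.715 of the range. For Plin4 nulliparous mouse NUL_221 was highest at 1.42 TPM, with the next at 0.87 TPM, a gap of 0.573. For Cidea lactating mouse LAC_240 was highest at 0.20 TPM, with the next at 0.06 TPM, a gap of 0.700.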

How the results depend on the processing

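No paired analysis was possible because the replicate numbers are animal numbers that no group shares. The number of genes past both thresholds was 0 in each comparison under every alternative with the fold threshold. With no threshold on the fold it was 2 for lactation against nulliparous mice, 3 for involution against lactation and 1 for involution against nulliparous mice. The 2 became 0 with scaling joined to mice numbered 200 and above. The 3 became 1 with mice at 200 and above, as deposited or scaled, and with the range as a covariate. With mice at 200 and above as deposited the gene left was Cideb (limma adjusted p = 0.00980). It need not be the same gene in each setting. With each mouse left out the 3 ranged from 1 to 4. The 1 became 0 with no filter, with the 2 groups alone, with mice at 200 and above, with the range as a covariate and with scaling joined to mice at 200 and above, and ranged from 0 to 1 with each mouse left out. The involution against nulliparous log2 ratio of G0s2 to Pnpla2 ranged from -0.64 to -0.37 with each mouse left out (exact permutation p from 0.0325 to 0.160).

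Direction changed only for changes that passed no threshold. Plin4 in lactation was -0.039 with mice at 200 and above and ranged from -0.029 to 0.12 with each mouse left out (-0.00030 without nulliparous mouse NUL_4, -0.029 without lactating mouse LAC_36). Plin5 in lactation was -0.021 with mice at 200 and above. Plin2 at involution against lactation was -0.00024 after scaling. Against nulliparous mice, involution gave 0.019 for Plin3 with mice at 200 and above, -0.14 to 0.024 for Plin4 with each mouse left out, and 0.014 for Fitm2 with the range as a covariate. Of the falls at involution against lactation, that of Plin5 was also lost with no filter (limma adjusted p = 0.0539) and that of Fitm2 with the 2 groups alone (0.0541). The cause was not tested. TPM gives no depth, so the precision of the values near 0 of Cidea, Cidec and Plin4 is known only from the spread between mice.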
